A study of Mus musculus with 4 samples.

Results

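The genes described here are 40 cell cycle genes measured in the back skin of 10-day-old mice with and without ADAM17 in keratinocytes. They were chosen by name from knowledge of the cell cycle, with earlier results of these data known. Of the 40, 17 act in or before DNA replication (the S-phase group) and 20 act in mitosis or mark dividing cells (the mitotic group). Ccna2, Ccnd1 and Ccnd2 were put in neither group. All 40 of 40 were measured among 15552 genes on the arrays. A total of 39 were found under their own name and Cdc45 through its accession, since the array lists it under an older symbol.

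All 4 animals carried loxP-flanked (Adam17 flox/flox) alleles on a mixed 129Sv and C57BL/6 background. The 2 knockout animals (cKO, for conditional knockout) also carried Krt14-Cre, a transgene in which the keratin 14 promoter drives Cre recombinase in basal keratinocytes and the outer cells of the hair follicle, and the 2 control animals lacked it. Each of 2 litters gave 1 control and 1 cKO animal, and each biopsy was hybridised to 1 array (1-colour, Agilent whole mouse genome). As the controls lack Cre, Cre and loss of ADAM17 cannot be told apart. Whole skin also holds cells in which Cre is not made. Adam17 itself stood at 0.44 and 0.37 in control skin and at -0.14 and -0.12 in cKO skin. Each value is log2 signal less that of the array's 75th percentile. The difference was -0.54 ± 0.09 (SE, adjusted p = 0.114, limma), a cKO level of 69.0% of control. The values are those of the brighter of 2 Adam17 probes past the filter. The labels do not name the exon between the loxP sites, so whether either probe lies in it is unknown. The source of the Adam17 signal left in cKO skin was not tested.

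A cell that divides first commits to the cycle through D-type and E-type cyclins, which release E2F transcription factors. It then loads the MCM helicase on its DNA and copies it, and finally builds a spindle under the control of cyclin B with CDK1, the Polo and the Aurora kinases. In growing skin, division takes place mainly among basal keratinocytes and in the hair matrix, at the lower end of the follicle. ADAM17 releases ligands of the EGF receptor, whose signals are known to drive keratinocytes to divide. In bulk tissue a lower signal can come from fewer dividing cells or from less RNA per cell, and these cannot be told apart.

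The promoters of these genes differed between the phases. RefSeq windows (GRCm38.p6) from 250 bases before to 50 bases after a start site were at hand for 31 of the 40 genes, in 33 windows. Both strands were searched for the E2F site (TTTCCCGC, TTTCGCGC, TTTGCCGC or TTTGGCGC), for the CHR element (TTTGAA or TTCGAA), which binds the complexes that restrain mitotic genes until late in the cycle, and for the CCAAT box (CCAAT). An E2F site was in 37.5% of the 16 S-phase windows, 5.88% of the 17 mitotic windows and 2.26% of all 32851 windows. A CHR element was in 82.4% of the mitotic windows, 18.8% of the S-phase windows and 19.2% of all. CCAAT boxes were in 88.2% of mitotic, 62.5% of S-phase and 37.4% of all windows. The windows below were picked to show both kinds: Mcm6 and Mcm3 carry E2F sites, Mcm7 (1 of its 2 windows) and Cdk1 carry E2F sites and CHR elements, and Ccnb2, Cdc20, Mki67 and Top2a carry CHR elements with CCAAT boxes. Each reads 5′ to 3′ in the direction of its gene, and capitals mark every match to the 3 motifs on either strand. In Mcm7 an E2F site overlaps a CCAAT box and in Mcm6 a pair of E2F sites overlaps, so these are joined in capitals.
Mcm7 (chr5:138171834-138172133, - strand): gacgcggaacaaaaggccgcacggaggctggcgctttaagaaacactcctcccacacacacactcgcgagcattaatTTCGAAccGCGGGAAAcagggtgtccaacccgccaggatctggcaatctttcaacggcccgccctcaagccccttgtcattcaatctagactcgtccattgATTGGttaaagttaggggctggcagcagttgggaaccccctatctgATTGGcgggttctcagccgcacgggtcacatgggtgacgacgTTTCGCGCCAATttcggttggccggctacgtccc
Mcm6 (chr1:128359656-128359955, - strand): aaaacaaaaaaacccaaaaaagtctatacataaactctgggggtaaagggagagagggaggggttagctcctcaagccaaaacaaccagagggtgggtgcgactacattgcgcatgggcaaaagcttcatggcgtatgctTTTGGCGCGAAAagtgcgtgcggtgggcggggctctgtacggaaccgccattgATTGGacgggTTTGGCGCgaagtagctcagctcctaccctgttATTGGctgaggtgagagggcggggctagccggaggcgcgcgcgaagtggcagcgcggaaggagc
Mcm3 (chr1:20820263-20820562, - strand): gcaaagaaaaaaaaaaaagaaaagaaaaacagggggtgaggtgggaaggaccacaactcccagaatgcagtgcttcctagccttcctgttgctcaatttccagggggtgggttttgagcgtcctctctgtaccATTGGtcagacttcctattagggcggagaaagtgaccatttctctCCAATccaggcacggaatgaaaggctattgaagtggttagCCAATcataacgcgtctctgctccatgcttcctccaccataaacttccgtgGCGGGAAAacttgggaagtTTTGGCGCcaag
Cdk1 (chr10:69352863-69353162, - strand): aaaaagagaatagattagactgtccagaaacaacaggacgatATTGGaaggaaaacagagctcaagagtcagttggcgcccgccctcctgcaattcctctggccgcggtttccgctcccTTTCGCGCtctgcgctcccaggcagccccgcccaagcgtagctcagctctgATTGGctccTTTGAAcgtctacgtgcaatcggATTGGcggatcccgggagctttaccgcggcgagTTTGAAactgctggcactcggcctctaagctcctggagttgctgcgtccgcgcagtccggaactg
Ccnb2 (chr9:70421505-70421804, - strand): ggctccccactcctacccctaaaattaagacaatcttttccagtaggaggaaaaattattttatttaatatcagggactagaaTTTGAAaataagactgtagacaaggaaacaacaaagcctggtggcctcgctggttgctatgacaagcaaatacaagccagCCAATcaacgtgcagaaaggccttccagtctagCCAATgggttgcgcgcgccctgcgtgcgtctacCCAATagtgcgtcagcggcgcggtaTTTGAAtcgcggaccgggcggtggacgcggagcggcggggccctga
Cdc20 (chr4:118437294-118437593, - strand): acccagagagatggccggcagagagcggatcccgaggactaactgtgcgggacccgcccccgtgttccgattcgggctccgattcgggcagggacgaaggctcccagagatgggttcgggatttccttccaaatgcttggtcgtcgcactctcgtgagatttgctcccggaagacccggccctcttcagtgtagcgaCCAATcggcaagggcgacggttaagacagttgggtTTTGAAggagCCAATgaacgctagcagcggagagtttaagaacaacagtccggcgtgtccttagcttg
Mki67 (chr7:135716330-135716629, - strand): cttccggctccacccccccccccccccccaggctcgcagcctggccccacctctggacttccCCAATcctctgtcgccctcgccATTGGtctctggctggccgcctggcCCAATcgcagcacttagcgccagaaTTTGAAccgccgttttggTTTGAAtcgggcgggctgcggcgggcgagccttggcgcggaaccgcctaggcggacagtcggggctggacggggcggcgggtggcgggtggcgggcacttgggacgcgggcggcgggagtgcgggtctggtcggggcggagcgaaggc
Top2a (chr11:99024140-99024439, - strand): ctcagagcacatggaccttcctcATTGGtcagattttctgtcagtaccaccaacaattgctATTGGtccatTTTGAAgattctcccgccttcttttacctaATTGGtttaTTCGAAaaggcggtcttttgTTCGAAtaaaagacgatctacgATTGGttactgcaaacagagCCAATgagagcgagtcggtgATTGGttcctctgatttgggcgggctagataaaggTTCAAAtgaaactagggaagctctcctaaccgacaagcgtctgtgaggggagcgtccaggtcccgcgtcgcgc
Among the 5 mitotic windows printed, the last CHR element began at position 4 from the start site in Ccnb2, -15 in Cdk1, -18 in Cdc20, -23 in Top2a and -98 in Mki67. The E2F sites of Mcm3 began at positions 19 and 38. Letter matches do not show that a factor binds there.

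All values below are log2 of the authors' processed signal minus that of each array's 75th percentile, and differences are cKO minus control on that scale. Levels of different probes are not compared with each other. The 75th percentile lay between 751 and 784 signal units on the 4 arrays, no gene spot was saturated, and between 53.7% and 56.6% of gene spots were well above background. The probes that stand for the 40 genes were well above background on all 4 arrays. Of the 13 genes with several probes past the filter, 6 (Bub1, Ccnb1, Ccnd2, Ccne1, Cdc6 and Top2a) had probes with differences of opposite sign. Precision is limited by having 2 arrays a group.

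Cell cycle genes differed little between the genotypes. The 40 differences ran from -0.23 (Ccne2) to 0.31 (Mki67), and 31 were smaller than 0.2 in size. None passed an adjusted p of 0.05 in limma's test over all genes (lowest adjusted p = 0.289, Mcm7), where 0.341% of all genes passed (0.0707% higher and 0.27% lower in cKO skin). At an unadjusted p under 0.05, 3 of 40 (7.5%) were higher and 0 lower in cKO skin, while 8.04% of all genes were higher and 8.11% lower at that level. With litter in the model as a block, which the matched litters allow, 6 of 40 (15%) were higher and 0 lower at an unadjusted p under 0.05, against 12.4% and 11.4% of all genes, and again 0 passed the adjusted test (lowest adjusted p = 0.149, Mki67). The 6 genes higher with litter in the model were E2f1, Cdt1, Mcm7, Tk1, Mki67 and Nusap1. In the model without litter, the 95% intervals of all 40 differences lay within a 2-fold change in either direction. Those of 35 lay within 1.5-fold, and 37 held 0. The widest reached -0.52 (Ccne2) at the low end and 0.78 (Mcm6) at the high end. At an unadjusted p under 0.05, the share of members higher in cKO skin was thus near that of all genes. No member was lower at that level.

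**Figure D1:**
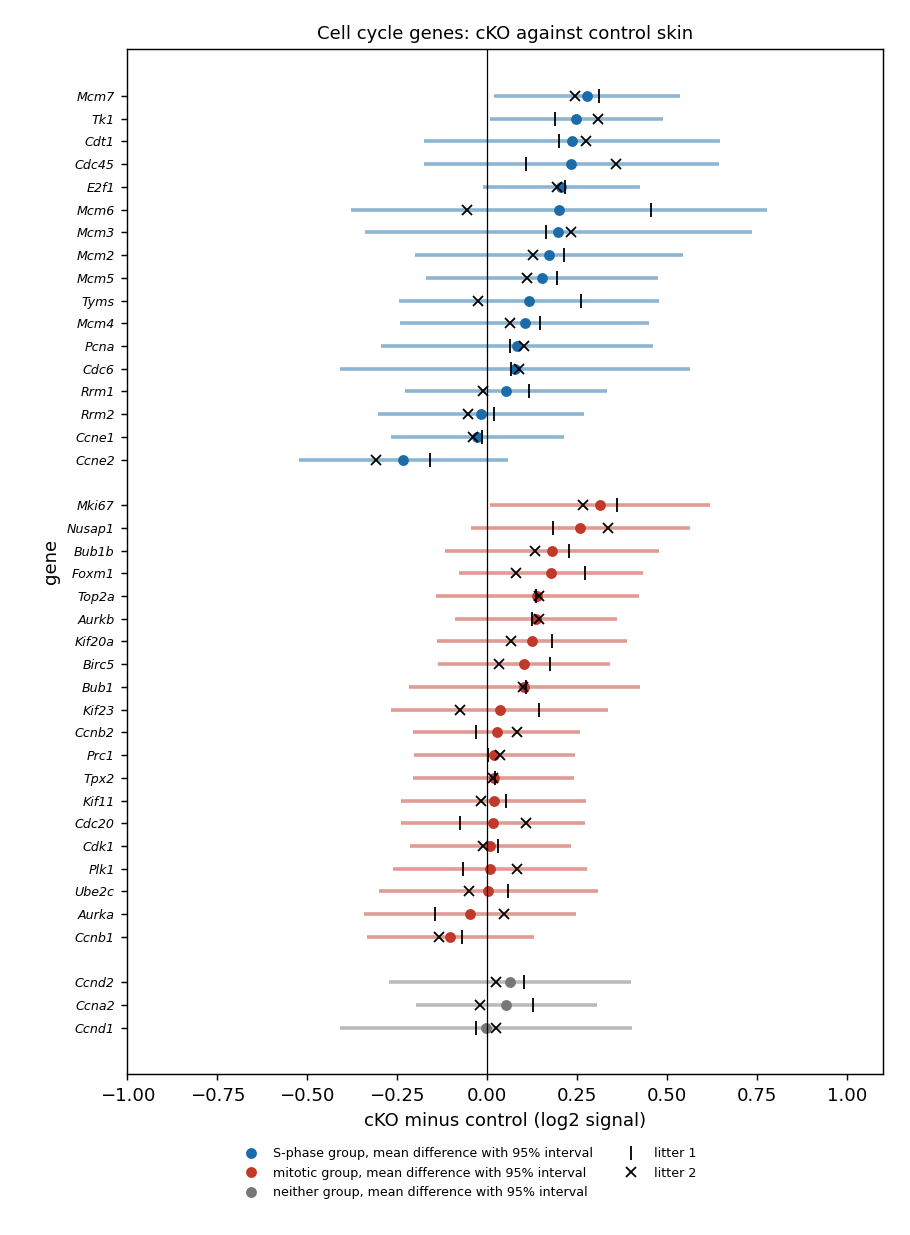
Difference between cKO and control skin (log2 signal, horizontal axis) for each of the 40 genes, sorted within the S-phase group (blue), the mitotic group (red) and the 3 other cyclins (grey); dots are means over 2 litters, pale bars 95% intervals from limma, black ticks the value in litter 1 and black crosses that in litter 2. Most genes sit between 0 and 0.3. The intervals are from the model without litter, and those of Mcm7, Tk1 and Mki67 alone leave out 0.

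The signs of these small differences leaned upward, in genes chosen with earlier results of these data known. Of the 40 genes, 34 had a positive mean difference, while 55.1% of all genes did, and 23 (57.5%) were higher in both litters, against 40.4% of all genes. Only 3 (7.5%) were lower in both, against 32.1%, and 14 (35%) had opposite signs in the litters, against 27.5%. The 40 differences had a median of 0.09, by litter 0.12 and 0.07, and those of all genes one of 0.03. The cKO arrays did not overlap with the control arrays in 11 genes on the higher side (27.5%, against 28% of all genes) and in 2 on the lower side (5%, against 21.4%). Members of one cycle share the same dividing cells and the same 4 arrays, so their common sign is not a set of independent results. Across the 40 genes the difference in litter 1 correlated with that in litter 2 at 0.44 (Pearson), below the 0.58 over all 15552 genes, with each axis resting on 1 pair of arrays.

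The lean was lost without 1 array, in fits that do not hold litter. With an array left out, 1 group rests on 1 litter, so the litter difference enters the genotype difference. Of the 40 genes, 34 read higher in litter 2, with a median litter difference of 0.11. Within the litters, the median genotype differences were 0.12 and 0.07. Litter and the array left out cannot be told apart in these runs. Control replicate 1, from litter 1, was the lowest of the 4 arrays for 28 of the 40 genes and the highest for 0, while it was the lowest for 31.4% and the highest for 21.5% of all genes. The cKO array of litter 2 was the highest for 23 of the 40, against 30.6% of all genes. Without control replicate 1, 21 of the 40 differences were positive and 19 negative, with a median of 0.01. Without cKO replicate 2 the counts were 25 and 15, with a median of 0.04. Without control replicate 2 they were 35 and 5 (median 0.15), and without cKO replicate 1 37 and 3 (median 0.14). Between 53% and 55.6% of all genes were positive in these runs. Why control replicate 1 read lower was not tested. The sign also turned under the normexp background correction, with 13 positive and 27 negative differences (median -0.10). That fit was set off by 3 spots below their local background on cKO replicate 2, and without them 30 were positive and 10 negative (median 0.07). Of all genes, 53.1% and 56.1% were positive under these corrections.

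**Figure D2:**
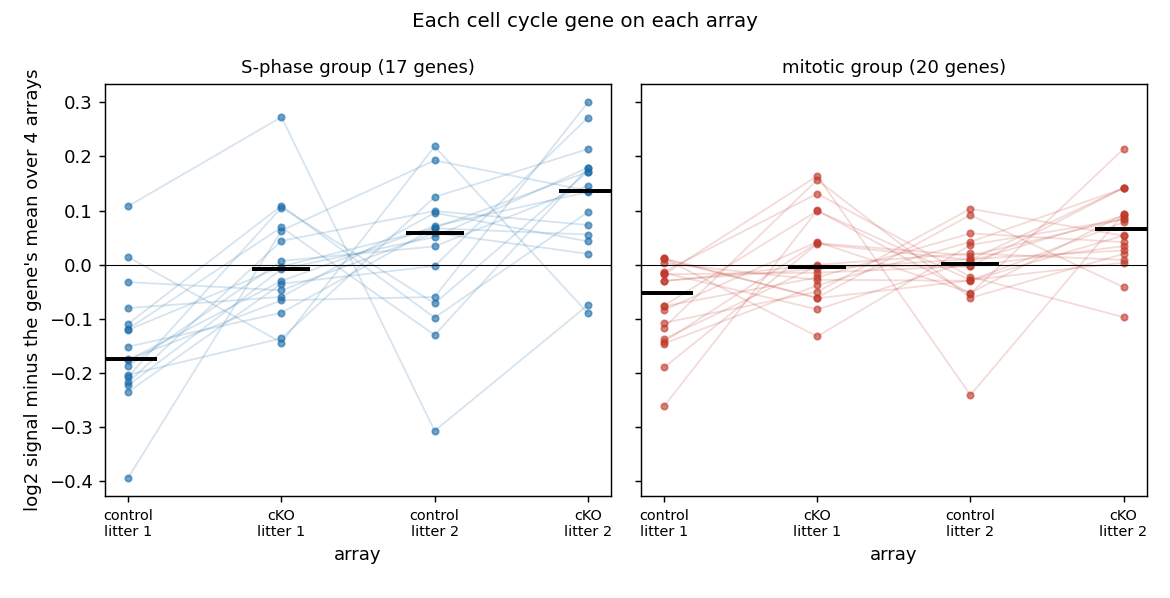
Log2 signal of each gene minus its own mean over the 4 arrays (vertical axis), by array, for the 17 genes of the S-phase group (left) and the 20 of the mitotic group (right); lines join 1 gene and black bars are medians. The median of the S-phase group goes from -0.17 in control skin of litter 1 to 0.14 in cKO skin of litter 2, and that of the mitotic group from -0.05 to 0.07.

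The S-phase group had a median difference of 0.15 and the mitotic group one of 0.03, which is 0.12 apart. By litter the groups were 0.08 apart in litter 1 (0.16 against 0.08) and 0.03 apart in litter 2 (0.10 against 0.07). Relative to the 4-array mean, the S-phase group's median was -0.17 in control and -0.0080 in cKO skin of litter 1, and 0.06 and 0.14 in litter 2. The mitotic group's was -0.05 and -0.0049 in litter 1, and 0.0021 and 0.07 in litter 2. Both groups thus held the same order of arrays, with a wider range in the S-phase group. Without control replicate 1 the order of the groups turned, with -0.02 for the S-phase group and 0.04 for the mitotic group. That run sets the control of litter 2 against cKO skin of both litters, without litter in the model. The means of the groups were closer than their medians, at 0.12 and 0.08. Sorted by promoter, the 7 genes with an E2F site were all positive with a median of 0.20. Of the 16 with a CHR element 15 were positive with a median of 0.03. Of the 23 with a CCAAT box 20 were positive with a median of 0.05. Beside these counts, 34 of all 40 members and 55.1% of all genes were positive. The 6 genes with none of the 3 motifs, 5 of them positive, had a median of 0.16, near that of the E2F class. The E2F and CHR classes largely repeat the phase groups, as 6 of the 7 belong to the S-phase group and 13 of the 16 to the mitotic group.

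Among the genes that start the cycle, E2f1 encodes the transcription factor that turns on replication genes. It read -1.16 and -1.15 in control skin and -0.94 and -0.95 in cKO skin, so the groups did not overlap and replicates lay close together. Its difference was 0.21 ± 0.08 (SE, n = 2 a group; adjusted p = 0.329, limma), 0.22 in litter 1 and 0.19 in litter 2, and its second probe gave 0.23. The E-type cyclins drive entry into S phase with CDK2. Ccne2 read -2.99 and -2.79 in control skin and -3.15 and -3.10 in cKO skin, the lowest difference of the 40 at -0.23 ± 0.11 (SE; adjusted p = 0.396, limma), -0.16 in litter 1 and -0.31 in litter 2. Both of its probes gave -0.23, but the signal is dim. Ccne1 differed by -0.03, with overlapping groups. The D-type cyclins link growth factor signals to the cycle. Ccnd1 read 2.11 and 2.35 in control and 2.08 and 2.37 in cKO skin, with a difference of -0.0023 ± 0.15 (SE; adjusted p = 0.995, limma), -0.03 and 0.03 by litter, and a 95% interval from -0.41 to 0.40. Ccnd2 read 5.13 and 5.37 in control and 5.23 and 5.39 in cKO skin, with a difference of 0.06 ± 0.13 (SE; adjusted p = 0.837, limma), 0.10 and 0.02 by litter, and an interval from -0.27 to 0.40. Its other probes gave 0.07 and -0.06. For both D-type cyclins the littermates of different genotype were closer to each other than the controls of different litters.

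The 9 genes that license and fire replication origins had positive differences at their brightest probes. Cdc6 and Cdt1 load the MCM2-7 helicase onto origins and Cdc45 is part of the active helicase. Cdt1 read 2.72 and 2.95 in control and 2.92 and 3.22 in cKO skin, a difference of 0.24 ± 0.15 (SE; adjusted p = 0.519, limma), and Cdc45 differed by 0.23. Cdc6 read -2.02 and -1.69 in control and -1.95 and -1.60 in cKO skin, so that the litter made the larger difference. Its second probe, above background on all 4 arrays, gave -0.12 against 0.08 for the brighter one. The 6 MCM subunits differed by 0.10 to 0.28, with a median of 0.18, and by litter 0.20 and 0.12. Mcm7 read 3.55 and 3.68 in control skin and 3.86 and 3.93 in cKO skin. Its groups did not overlap, and it had the smallest p of the 40 (difference 0.28 ± 0.10 SE, 95% interval 0.02 to 0.54; adjusted p = 0.289, limma), 0.31 in litter 1 and 0.24 in litter 2. The Mcm7 probe lies on chromosome 5 at 138605925 to 138605984 (mm9). Mcm2 read 0.80 and 1.08 in control and 1.02 and 1.20 in cKO skin, overlapping, with a difference of 0.17 ± 0.14 (SE; adjusted p = 0.597, limma), 0.21 in litter 1 and 0.13 in litter 2. Mcm6 read 4.50 and 5.09 in control and 4.96 and 5.03 in cKO skin, higher by 0.46 in litter 1 and lower by 0.06 in litter 2 (-0.06).

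Among the genes that supply nucleotides and copy DNA, Tk1 had the highest difference. Tk1, thymidine kinase of dividing cells, read 2.13 and 2.12 in control skin and 2.32 and 2.43 in cKO skin, without overlap (difference 0.25 ± 0.09 SE; adjusted p = 0.300, limma), 0.19 in litter 1 and 0.31 in litter 2. The Tk1 probe lies on chromosome 11 at 117677105 to 117677164 (mm9). Pcna, the sliding clamp of DNA polymerases, read 4.41 and 4.63 in control and 4.47 and 4.73 in cKO skin, with a difference of 0.08 ± 0.14 (SE; adjusted p = 0.808, limma), 0.06 and 0.10 by litter, and a 95% interval from -0.30 to 0.46. Tyms, which makes thymidylate, and the ribonucleotide reductase genes Rrm1 and Rrm2 differed by 0.12, 0.05 and -0.02, with signs that changed between the litters.

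Of the general markers of dividing cells, Mki67, the gene of the Ki-67 protein that coats mitotic chromosomes, read 4.38 and 4.58 in control skin and 4.74 and 4.85 in cKO skin. This was the largest difference of the 40 (0.31 ± 0.11 SE, 124% of control, 95% interval 0.0075 to 0.62; adjusted p = 0.302, limma). It was 0.36 in litter 1 and 0.27 in litter 2, and the second Mki67 probe gave 0.23. The Mki67 probe lies on chromosome 7 at 142881591 to 142881650 (mm9). Top2a, the topoisomerase that untangles sister chromosomes, read 0.55 and 0.68 in control and 0.69 and 0.83 in cKO skin, a difference of 0.14 ± 0.11 (SE; adjusted p = 0.571, limma), 0.13 in litter 1 and 0.15 in litter 2. The groups did not overlap, but the higher control and the lower cKO array were nearly equal. A dimmer Top2a probe, well above background on 3 of 4 arrays, gave -0.39, so the probes of this gene disagree in sign. Foxm1, a transcription factor of mitotic genes, read 0.09 and 0.15 in control and 0.37 and 0.23 in cKO skin, a difference of 0.18 ± 0.10 (SE; adjusted p = 0.452, limma), 0.27 in litter 1 and 0.08 in litter 2. Its groups did not overlap.

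The core of the mitotic machine was nearly level between genotypes. Cdk1, the kinase that starts mitosis, read 0.91 and 0.96 in control and 0.94 and 0.95 in cKO skin, with a difference of 0.0092 ± 0.08 (SE; adjusted p = 0.965, limma), 0.03 and -0.01 by litter, and a 95% interval from -0.21 to 0.23. Its partner Ccnb1 read 0.78 and 0.87 in control and 0.71 and 0.73 in cKO skin, without overlap on the lower side (-0.10 ± 0.09 SE; adjusted p = 0.612, limma; -0.07 and -0.13 by litter). The other Ccnb1 probes gave 0.11 and -0.03. Ccna2, the cyclin of S phase and early mitosis, read 2.57 and 2.71 in control and 2.70 and 2.69 in cKO skin (difference 0.05 ± 0.09 SE; adjusted p = 0.814, limma; 0.13 and -0.02 by litter). Ccnb2, Plk1 and the mitotic exit genes Cdc20 and Ube2c, which mark cyclin B for destruction, differed by 0.03, 0.0081, 0.02 and 0.0037. The signs of 5 of the 7 genes in the set of Foxm1, Cdk1, the B-type cyclins, Cdc20, Ube2c and Plk1 were opposite in the litters.

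Kinases and structural proteins of the spindle differed by -0.05 to 0.26. The Aurora kinase genes differed by -0.05 (Aurka, at spindle poles) and 0.14 (Aurkb, at the centromere). Aurka read 2.57 and 2.59 in control skin and 2.42 and 2.64 in cKO skin, so the cKO arrays lay on both sides of the controls (-0.05 ± 0.11 SE; adjusted p = 0.858, limma; -0.14 and 0.05 by litter). Birc5, the survivin partner of Aurkb, differed by 0.10, and the checkpoint kinase genes Bub1 and Bub1b by 0.10 and 0.18. Tpx2, which activates Aurka, differed by 0.02. Among the motors and microtubule bundlers Kif11, Prc1, Kif23 and Kif20a differed by 0.02, 0.02, 0.03 and 0.12. Nusap1, which binds spindle microtubules, read 0.56 and 0.33 in control and 0.74 and 0.67 in cKO skin, without overlap, a difference of 0.26 ± 0.11 (SE; adjusted p = 0.372, limma), 0.18 in litter 1 and 0.33 in litter 2.

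Differences between the litters were of similar size to those between genotypes. In a model with genotype and litter, 34 of the 40 genes (85%) read higher in litter 2, against 53.6% of all genes, with a median of 0.11. None passed an adjusted p of 0.05 in limma and neither did any other gene (0% of all genes). At an unadjusted p under 0.05, 5 genes were higher and 1 lower in litter 2, against 6.91% and 9.18% of all genes. The largest of these values belonged to the S-phase group. Mcm3 differed by -0.38 ± 0.07 between litters (SE; adjusted p = 0.248, limma) and Cdc6 by 0.34 ± 0.06 (adjusted p = 0.255, limma). Ccnd1 differed by 0.26 ± 0.07, Cdt1 by 0.27 ± 0.07, Pcna by 0.24 ± 0.06 and Mcm2 by 0.23 ± 0.07 (adjusted p from 0.274 to 0.296, limma). These SEs come from the model with litter, in which a gene's genotype difference has the same SE as its litter difference. For Ccnd1 the genotype SE is 0.07 in that model, against 0.15 in the model without litter. The genotype SEs given above are from the model without litter. The second Mcm3 probe read 0.99 and 1.13 in control and 1.17 and 1.27 in cKO skin, higher in litter 2, against 3.06 and 2.65 and 3.23 and 2.88 for the brighter one. The sign of the Mcm3 litter difference thus depends on the probe, while both probes gave a positive genotype difference (0.20 and 0.16). The S-phase group had a median litter difference of 0.17 and the mitotic group one of 0.05.

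**Figure D3:**
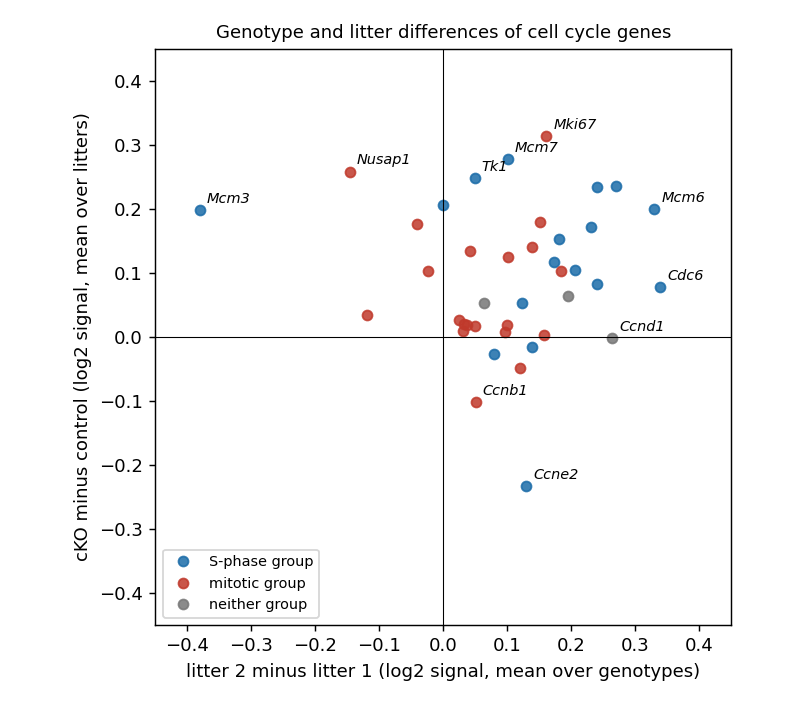
Genotype difference (cKO minus control, vertical axis) against litter difference (litter 2 minus litter 1, horizontal axis), both in log2 signal, for each of the 40 genes. Points spread over a like range on both axes, with Mki67 highest for genotype (0.31), Ccne2 lowest (-0.23), and Mcm3 at -0.38 and Cdc6 at 0.34 between litters.

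Further genes of the cycle were taken from 4 lists, whose differences ran from -0.56 to 0.59. Of 40 other S-phase genes 29 (72.5%) were higher in both litters and 6 (15%) lower in both, against 40.4% and 32.1% of all genes. The list's median was 0.15 and 0 passed the adjusted test, where 0.341% of all genes passed. Rfc3, a clamp loader subunit, had the smallest p, reading -1.24 and -1.15 in control and -0.77 and -0.71 in cKO skin (difference 0.45 ± 0.09 SE, adjusted p = 0.146, limma). Lig1, the DNA ligase of replication, differed by 0.25 (adjusted p = 0.338). Of 50 other mitotic genes 36 (72%) were higher in both litters and 5 (10%) lower in both, with a median of 0.11, and 0 passed. Ckap2l differed by 0.50 ± 0.13 (SE; adjusted p = 0.202, limma) and Ckap2 by 0.29 ± 0.09 (adjusted p = 0.239), both genes of spindle proteins. Of the 40 and the 50, 33 and 41 had positive differences. Arrays were also left out here, in fits without litter. Without control replicate 1, 29 of the 40 and 37 of the 50 were positive, with medians of 0.08 for each list, against 53% of all genes. Without cKO replicate 2 the counts were 27 and 38, with medians of 0.07 and 0.11, against 54.5% of all genes.

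The lists of brakes and drivers went both ways. Of 21 measured genes that restrain the cycle, 9 (42.9%) were higher in both litters and 8 (38.1%) lower in both. Their median was -0.01, with differences from -0.56 to 0.36, and 0 passed. At an unadjusted p under 0.05 (limma), 3 (14.3%) were lower and 1 (4.76%) higher in cKO skin. Of all genes, 40.4% were higher in both litters, 32.1% lower in both, and 0.341% passed. At that unadjusted p, 8.11% of all genes were lower and 8.04% higher. Btg2, an antiproliferative gene, read 2.03 and 2.10 in control and 1.75 and 1.66 in cKO skin (-0.36 ± 0.09 SE, adjusted p = 0.198, limma), and Cdkn2c, a CDK4 and CDK6 inhibitor, differed by 0.36 ± 0.10 (adjusted p = 0.214). Of 17 G1 drivers 9 (52.9%) were higher in both litters and 5 (29.4%) lower in both. Their median was 0.06 and 0 passed. The Myc family gene Mycl read 2.06 and 2.27 in control and 2.68 and 2.77 in cKO skin (0.56 ± 0.11 SE, adjusted p = 0.151, limma). Myc itself read 0.98 and 1.17 in control and 1.55 and 1.63 in cKO skin (0.51 ± 0.11 SE, adjusted p = 0.158, limma). Neither overlapped between genotypes, and both differences were larger than that of any of the 40 genes. Of the 17 G1 drivers, 4 (23.5%) did not overlap on the higher side, against 28% of all genes. Mycl and Myc were named for the smallest p of their list. Myc is given by the brightest of 3 probes past the filter.

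**Figure D4:**
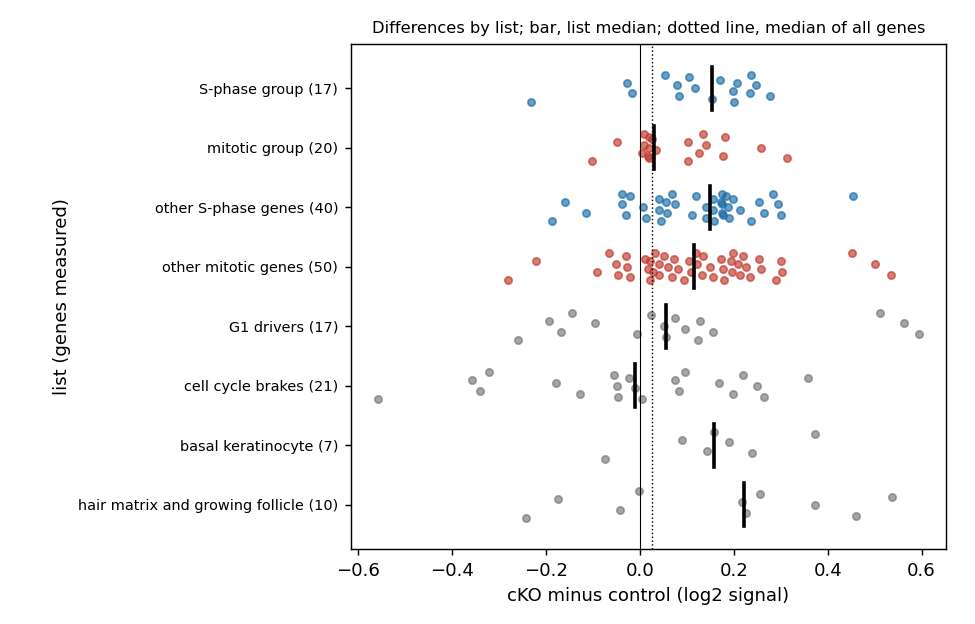
Difference between cKO and control skin (log2 signal, horizontal axis) for each gene of the 2 phase groups, of 4 other cell cycle lists and of 2 marker lists; black bars are list medians and the dotted line is the median of all genes (0.03). The S-phase group (0.15) and the other S-phase genes (0.15) lie to the right of the brakes (-0.01), and the spread within each list exceeds the distance between lists.

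Markers of the cell types in the biopsies were set beside these genes. Basal keratinocyte markers (7 of 7 measured, none absent) had a median difference of 0.16, with 6 higher in both litters, and their summed signal, in units of the 75th percentile, was 647 to 657 in control and 692 to 711 in cKO skin. Markers of the hair matrix and growing follicle (10 of 10 measured) had a median of 0.22, with 6 higher and 4 lower in cKO skin. They ran from -0.24 to 0.54, and 3 had opposite signs in the litters. Their summed signals were 35.7 in control and 31.1 in cKO skin of litter 1, and 33.6 and 37.4 in litter 2. Relative to the 4-array mean their median was -0.22 in control and -0.08 in cKO skin of litter 1. In litter 2 it was 0.04 and 0.28. The medians held the same order of arrays as in the S-phase group, but the summed signals did not. Fibroblast markers (6 of 6 measured) ran the other way between litters, at 0.34 and 0.24 in litter 1 and -0.20 and -0.32 in litter 2, with a genotype median of -0.08. The part of these cell types in the cell cycle values was not tested. Among the other markers, the medians were 0.41 for suprabasal keratinocytes, -0.04 for hair shaft and inner root sheath, 0.61 for fat cells, 0.34 for skeletal muscle, 0.15 for macrophages and dendritic cells and 0.28 for melanocytes. They were -0.58 for T cells, -0.43 for red cells, -0.07 for endothelium and 0.03 for Schwann cells. No gene of the 13 marker lists passed the adjusted test (limma), where 0.341% of all genes passed.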

How the data were processed

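RNA of 4 skin biopsies (500 ng each) was labelled with Cy3 and hybridised to 4 arrays of 1 slide with 1 scan time, so slide and scan are shared by both groups. The authors' scanner files give spot intensity, background-subtracted and detrended by Agilent Feature Extraction (10.5 per the submitters' processing notes, 10.7.3.1 per the file headers). The authors' deposited series table of log2 values correlated with the centred scanner values at 0.99999 or more and served as an alternative.

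Spots marked as outliers were left out, spots of a probe were averaged, and probes well above background on both arrays of a group were kept (22190 of 41174). The brightest probe stood for each of 15552 genes. Genes were named by RefSeq accession (26690 probes), symbol (5189), synonym (952) or the file's name (8343). The test of genotype used limma (version 3.58.1, under R 4.3.3; eBayes, two-sided, Benjamini-Hochberg over all genes), tested on simulated data. The prior added 2.37 degrees of freedom to 2.

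Replicate numbers are litter numbers per the labels. Deviations of littermates from their group means correlated at 0.35 across all genes and at 0.57 across the members, and litter as a block was an alternative. The genotype SEs, intervals and adjusted p given per gene are from the model without litter. The members and lists were chosen with earlier results of these data known. Members named in full were those with an unadjusted p under 0.05, the 3 highest and 3 lowest differences, and Mki67, Top2a, Pcna, Mcm2, Ccnd1, Ccnd2, Ccna2, Ccnb1, Cdk1, E2f1 and Foxm1. Of each other cell cycle list the 2 smallest p were named, and values of further members were chosen after they were seen. Genes of these other lists and Adam17 are given by the brightest probe alone, also where several probes passed the filter. Marker genes are given by list, not by name.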

Additional observations from a re-analysis of the deposited data

How the results depend on the processing

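The number of members past the adjusted test was 0 in both directions under every alternative run, with limma's lowest adjusted p of a member at 0.149 with litter as a replicate block. With that replicate block, 6 members instead of 3 had an unadjusted p under 0.05, and no member's call at an adjusted p of 0.05 differed. Leaving out each array in turn gave medians of 0.011 to 0.15 for all members, -0.019 to 0.24 for the S-phase group, 0.0091 to 0.097 for the mitotic group, and -0.058 to 0.14 for the difference between the groups. The lowest value of the S-phase group and of the difference between the groups came without control replicate 1. In the same runs Pcna ranged from -0.047 to 0.21, Ccnd1 from -0.15 to 0.14, Ccnd2 from -0.053 to 0.18, Ccna2 from -0.015 to 0.12, Cdk1 from -0.016 to 0.035 and Aurka from -0.16 to 0.060, all across 0.

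Scaling by the array median gave 0.038 for the mitotic group and 0.0054 for Ccnd1. The mean over a gene's probes gave 0.055 for all members, 0.023 for the mitotic group and -0.12 for Top2a, whose dimmer probe enters. Without Mki67, Top2a and Foxm1 the mitotic median was 0.020. Normexp gave -0.10 for all members, -0.037 for the S-phase group, -0.11 for the mitotic group and 0.077 between the groups. It turned Mcm7 (-0.0065), Tk1 (-0.0075), Ccne2 (0.60), Top2a (-0.023), Pcna (-0.19), Ccnd2 (-0.20), Ccna2 (-0.18) and Cdk1 (-0.14). On cKO replicate 2, 3 spots lay below their local background and the fitted background was -389.5, against 38.43 to 44.66 on the other arrays. Without those spots, an alternative chosen after seeing the data, it was 47.91. The medians were then 0.07 for all members, 0.11 for the S-phase group, 0.059 for the mitotic group and 0.055 between the groups, with Cdk1 at -0.025. Quantile normalization, the series table and no filter on dim probes kept the direction of the 16 members named in full. Over all genes, limma called 53 (0.341%) as reported, 0 with the replicate block, with normexp, with no filter, without control replicate 1 and without control replicate 2, 0.688% of genes with scaling by the array median, 135 genes with normexp without those 3 spots and 24 without cKO replicate 2. In runs that leave out an array, the lone sample of a group is assumed to vary like the others. These runs do not hold litter, so litter differences enter their genotype differences. With 2 arrays a group, a difference whose 95% interval holds 0 could not be told from 0 in the model without litter. The adjusted test asked for more: the intervals of Mcm7, Tk1 and Mki67 left out 0, but these genes did not pass it.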
